A study of Mus musculus with 2 samples.

Results

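The bHLH-PAS genes examined here were Npas1, Npas2, Npas3, Npas4, Sim1, Sim2, Arnt, Arnt2, Hif1a and Epas1. They are 10 of the 37273 genes annotated in GENCODE M1 on NCBI37/mm9, chosen by gene symbol, and an R-loop peak was assigned to a gene when it overlapped the gene by at least 1 bp or lay within 2 kb of it. By this rule, 47 of the 22132 listed R-loop peaks belonged to these genes, and 0 of the 47 were shared by any pair of them. The study mapped RNA:DNA hybrids by DRIP-seq. In this method genomic DNA is cut with restriction enzymes, and fragments carrying hybrids are pulled down by the S9.6 antibody before sequencing. The study asked where R-loops form in neural cells under mild replication stress and how they relate to recurrent DNA double-strand breaks. The cells were primary NSPCs, neural stem and progenitor cells grown in culture from the frontal brains of mice at postnatal day 7. The labels give the strain as C57BL/6 and name no treatment, whereas the study's text gives 0.5 μM aphidicolin, a DNA polymerase inhibitor, for 48 h. An input sample without antibody belongs to the same experiment, and its data were not analysed here.

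A single list with chromosome, start and end of each peak was analysed, so no value below has a replicate error, no difference was tested, and the sequencing depth behind a peak is unknown. DRIP-seq as done here does not give the strand of the hybrid, and a listed peak gives no amount. The list was searched for marker genes to check the labelled cell type, although a peak is not a measure of expression. Peaks were found at 8 of 10 neural stem and progenitor markers, with Fabp7 and Pax6 lacking one, and at 0 of 4 neuron markers. Of the markers of other cell types, 2 of 4 for oligodendrocytes, 1 of 4 for microglia and blood and 1 of 3 for endothelium had a peak. By the same rule 43.1% of all protein-coding genes had a peak, and lists this short do not settle the cell type.

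Proteins of the bHLH-PAS family are transcription factors that bind DNA through a basic region and pair through a helix-loop-helix and PAS domains. Most work as heterodimers of a regulated or tissue-restricted subunit and a general partner. NPAS3, the SIM proteins and the HIF alpha proteins pair in this way with ARNT or the neurally enriched ARNT2. In the brain they take part in neurogenesis, in the development of hypothalamic neurons, in activity-dependent transcription, in the circadian clock and in the response to low oxygen.

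Npas3 and Arnt2 were the only members with a peak over the transcription start site (TSS), and the 250 bases before their RefSeq TSS, matched to mm9 by exact sequence, are shown because these peaks contain them. All sequences here read 5′ to 3′ on the coding strand of the gene, and in this pair capitals mark CpG dinucleotides. The Npas3 promoter lies on the plus strand at chr12:54349169-54349418, and the Arnt2 promoter on the minus strand at chr7:91558549-91558798.
Npas3 promoter: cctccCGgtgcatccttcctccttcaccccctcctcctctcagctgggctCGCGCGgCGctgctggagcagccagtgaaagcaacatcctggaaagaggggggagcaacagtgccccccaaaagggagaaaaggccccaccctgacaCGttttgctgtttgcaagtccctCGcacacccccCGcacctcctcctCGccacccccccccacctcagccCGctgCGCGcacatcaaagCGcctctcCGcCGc
Arnt2 promoter: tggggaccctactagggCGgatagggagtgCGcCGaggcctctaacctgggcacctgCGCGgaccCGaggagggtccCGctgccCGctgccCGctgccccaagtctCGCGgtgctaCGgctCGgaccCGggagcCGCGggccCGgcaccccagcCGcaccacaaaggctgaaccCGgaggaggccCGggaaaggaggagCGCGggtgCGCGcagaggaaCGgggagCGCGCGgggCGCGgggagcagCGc
The Arnt2 sequence was 75.6% G and C with 31 CpG, and the Npas3 sequence was 66.4% G and C with 15 CpG, beside a median of 6 CpG over all 32851 RefSeq promoters of this length. On its coding strand the Npas3 promoter held 56 G and 110 C, whereas that of Arnt2 held 104 G and 85 C. ACGTG, the core of the sites bound by ARNT dimers, was searched on both strands and matched 1 time in the Npas3 promoter and 0 times in that of Arnt2. It occurs in 16.6% of all RefSeq promoters of this length.

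Some other peaks at these genes were rich in simple repeats, by their share of bases and not by the length of a single repeat. The windows of 100 bases with the largest share of perfect TG, CA, AG or CT repeats of at least 3 units are shown for 4 such peaks at different genes, with the repeats in capitals. They are at chr12:54610278-54610377 in Npas3 and chr12:75001199-75001298 upstream of Hif1a, on the plus strand, and at chr7:91538126-91538225 in Arnt2 and chr19:4982708-4982807 downstream of Npas4, on the minus strand.
Npas3 intron 3: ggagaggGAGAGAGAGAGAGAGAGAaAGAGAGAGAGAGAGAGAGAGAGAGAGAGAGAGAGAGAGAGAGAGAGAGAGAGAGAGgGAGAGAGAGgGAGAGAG
Arnt2 intron 1: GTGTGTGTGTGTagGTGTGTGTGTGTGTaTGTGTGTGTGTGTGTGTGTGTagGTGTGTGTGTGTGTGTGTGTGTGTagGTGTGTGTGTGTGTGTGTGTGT
Hif1a upstream: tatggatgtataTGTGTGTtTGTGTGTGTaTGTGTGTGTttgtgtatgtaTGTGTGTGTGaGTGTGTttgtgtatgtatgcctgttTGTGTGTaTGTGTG
Npas4 downstream: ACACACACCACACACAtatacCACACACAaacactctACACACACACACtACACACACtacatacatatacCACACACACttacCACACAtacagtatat
Repeats made up 90%, 93%, 54% and 59% of these windows, in the order shown. The coding strand carried 53 G and 0 C in the Npas3 window, 49 G and 0 C in that of Arnt2 and 36 G and 2 C in that of Hif1a. The Npas4 window went the other way, with 1 G and 39 C. Of the windows not shown, that of the repeat-rich peak in intron 4 of Npas3 was 98% repeats and balanced, with 26 G and 26 C. In Npas2 the windows held 38 G and 3 C, 11 G and 32 C, and 38 G and 10 C, and that of Sim2 held 42 G and 6 C. The widest peak of all 47, in intron 1 of Epas1, had 4.36% of its bases in such repeats and nearly equal numbers of both bases, 1754 G and 1802 C. Its window with most G relative to C, chosen for that excess, at chr17:87185364-87185463 on the plus strand, is shown with runs of at least 3 G in capitals.
Epas1 intron 1: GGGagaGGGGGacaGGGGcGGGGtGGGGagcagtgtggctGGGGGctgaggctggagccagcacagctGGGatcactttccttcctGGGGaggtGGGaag
This window held 52 G and 17 C, with 9 runs of G, and does not stand for the composition of the whole peak.

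R-loop peaks were present at 9 of the 10 genes, and Sim1 was the exception. Among all 22367 protein-coding genes, 9636 (43.1%) had a peak by the same rule. The share of genes with a peak rises with gene length in this list, from 26.4% of genes under 10 kb to 68.2% of the 528 genes of at least 300 kb, and the members range from 5.62 kb for Npas4 to 823 kb for Npas3. Npas3 had 26 peaks, Arnt2 had 6, Npas2 and Hif1a had 4 each, Sim2 and Epas1 had 2 each, and Npas1, Npas4 and Arnt had 1 each. Npas3 thus held 55.3% of the 47 peaks, and it makes up 47.7% of the summed length of the 10 genes.

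**Figure D1:**
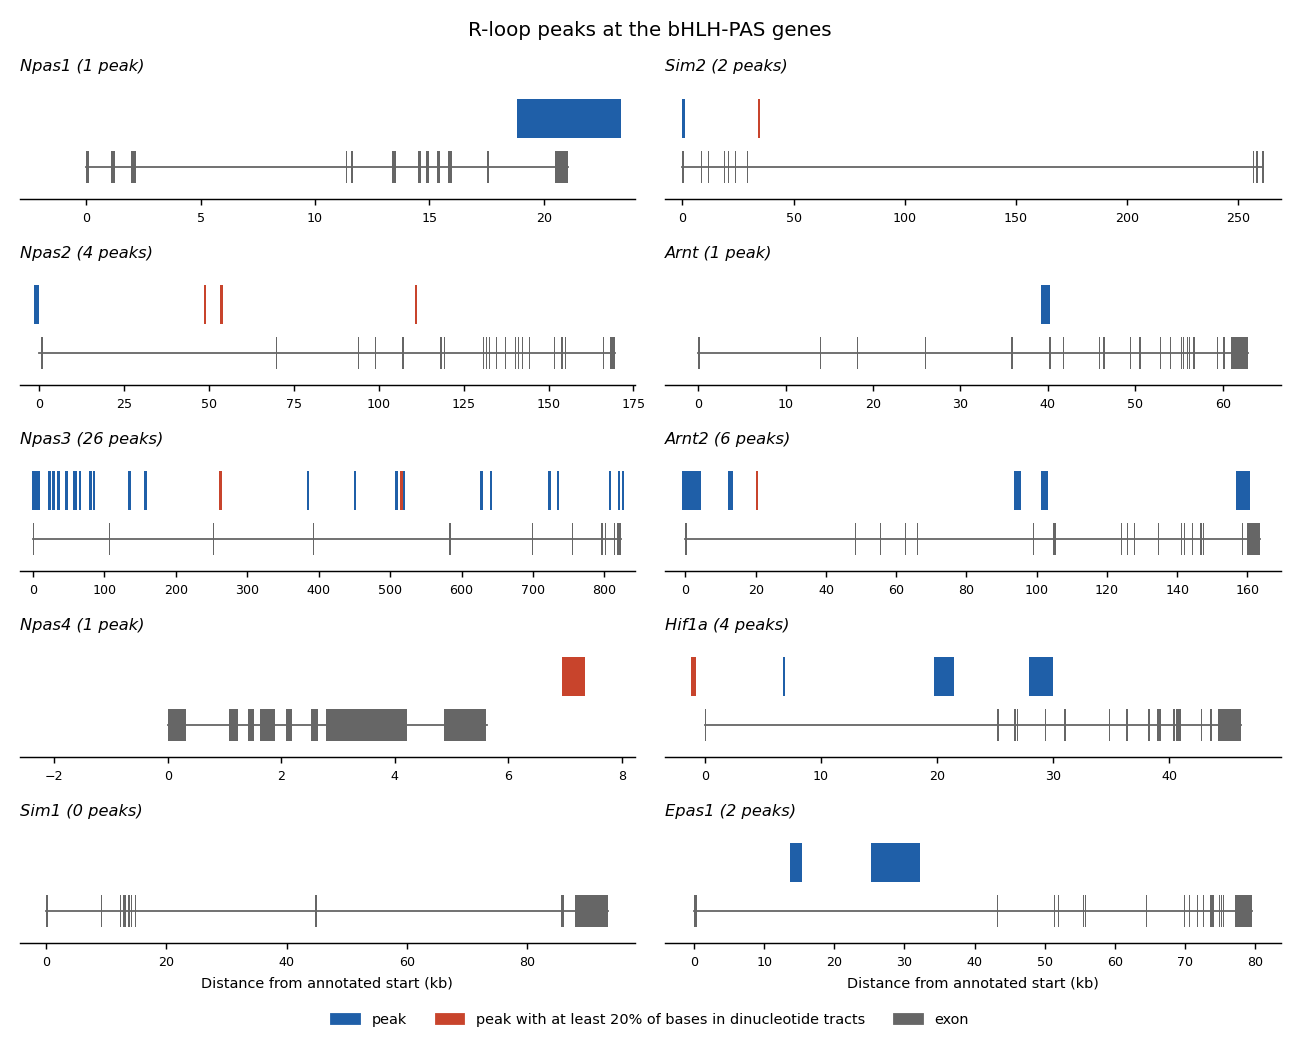
R-loop peaks along the 10 bHLH-PAS genes, with distance from the annotated start in kb on a scale of its own for each gene. Boxes on the line are exons, boxes above it are peaks (very narrow ones drawn at a minimum width), and those in red have at least 20% of their bases in dinucleotide repeats. Sim1 has 0 peaks, and the 26 peaks of Npas3 crowd toward its start.

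Counted per 100 kb of gene with its 2 kb flanks, the order was Npas4 (10.4), Hif1a (7.98), Npas1 (3.99), Arnt2 (3.58), Npas3 (3.14), Epas1 (2.40), Npas2 (2.31), Arnt (1.50), Sim2 (0.753) and Sim1 (0). Without replicates it cannot be said which neighbours in this order differ beyond their spread, and the value of Npas4 rests on 1 peak outside a short gene. The median was 2.77 over the 10 members and 0 over all protein-coding genes, or 3.14 and 5.89 when only genes with a peak were counted. Set beside the median of all protein-coding genes in their own length class, 9 of the 10 members had more peaks per 100 kb and Sim1 had fewer. The class median was 0.261 for genes of at least 300 kb, which include Npas3, and 0.745 for genes of 100 to 300 kb, which include Arnt2, Npas2 and, barely above it, Sim2. It was 1.24 for genes of 50 to 100 kb, where Epas1 and Arnt lay above it and Sim1 below. For genes of 10 to 50 kb, which include Hif1a and Npas1, and for those under 10 kb, which include Npas4, it was 0, so that any gene with a peak exceeds it. That holds for 49.9% and 26.4% of the genes in these classes, so for these members the comparison only repeats that they had a peak.

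**Figure D2:**
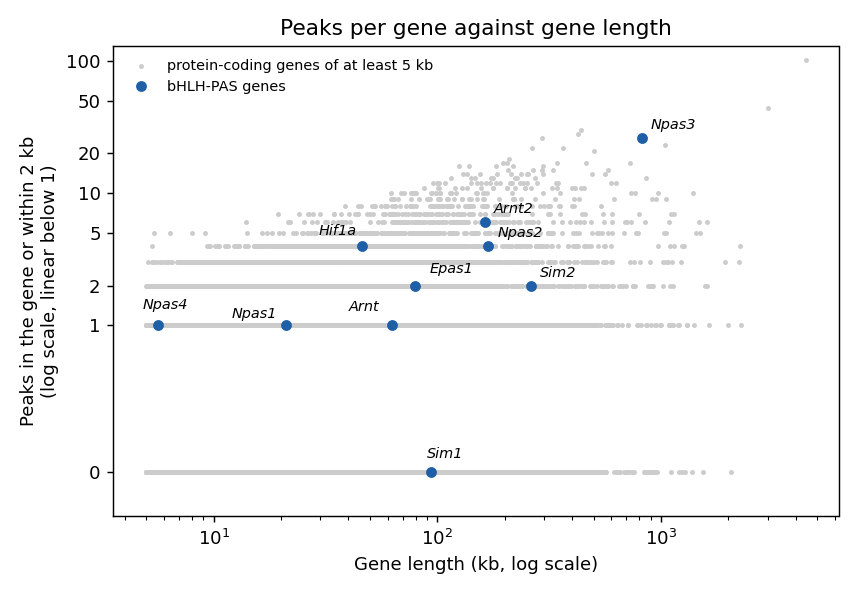
Number of peaks in a gene or within 2 kb of it (log scale above 1) against gene length in kb (log scale), for protein-coding genes of at least 5 kb in grey and the bHLH-PAS genes in blue. Npas3, with 26 peaks over 823 kb, stands near the upper edge of the long genes, and the other members lie among genes of their length.

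A peak contained the TSS of 2 of the 10 members, Npas3 and Arnt2, beside 14.9% of protein-coding genes. The same pair was found when the RefSeq TSS was used, which was available for 8 members. A peak within 1 kb of the annotated start was found at 5 members, beside 19.4% of protein-coding genes, because the nearest peak lay 20 bp away in Sim2, 241 bp in Npas2 and 765 bp in Hif1a. The annotated models of Npas3 and Sim2 begin with the coding sequence and have no 5′ untranslated region. The RefSeq TSS of Npas3, at 54349419, is upstream of the annotated start. By midpoint, 40 of the 47 peaks were intronic, 1 was exonic, 3 lay upstream and 3 downstream of the gene, and 9 overlapped an exon of any transcript. No share over all listed peaks is available beside these counts. Npas3, whose length is mostly intron, holds 26 of the 47, so the counts are not read as a trait of the family.

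Npas3 encodes a NPAS protein with roles in neurogenesis in the developing and adult brain. It lies on the plus strand at chr12:54349664-55173162 and its longest transcript has 12 exons. The peak over its TSS was 1.60 kb wide, at chr12:54348585-54350184, with 60.6% G and C and a ratio of observed to expected CpG of 0.725. The most GC-rich of its peaks lay at the other end of the gene, at chr12:55168386-55169594, over the start of exon 12, with 63.9% G and C and a CpG ratio of 0.786. These were the only Npas3 peaks that overlapped an exon.

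The peaks of Npas3 were unevenly spread. Intron 1, which is 106 kb long, held 10 of them, or 9.47 per 100 kb, and 22.3% of its bases were covered, counting the end of the TSS peak that reaches into it. Introns 2 to 6 span 56.1 to 191 kb each and held 2 or 4 peaks, between 1.36 and 3.56 per 100 kb, with 1.10 to 4.32% of their bases covered. Intron 9 held 1 peak, and introns 7, 8, 10 and 11 held 0 midpoints. Counted by distance, 10 peaks had their midpoint in the first 100 kb and 14 in the remaining 723 kb, the latter at 1.94 per 100 kb. Peaks in the first 100 kb were also wider, with a median of 1.87 kb against 1.10 kb in the rest, and 5 of the 8 Npas3 peaks of at least 2 kb were there. The longest stretch between neighbouring peaks, 123 kb, ran from 54610638 to 54733173, in intron 3.

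**Figure D3:**
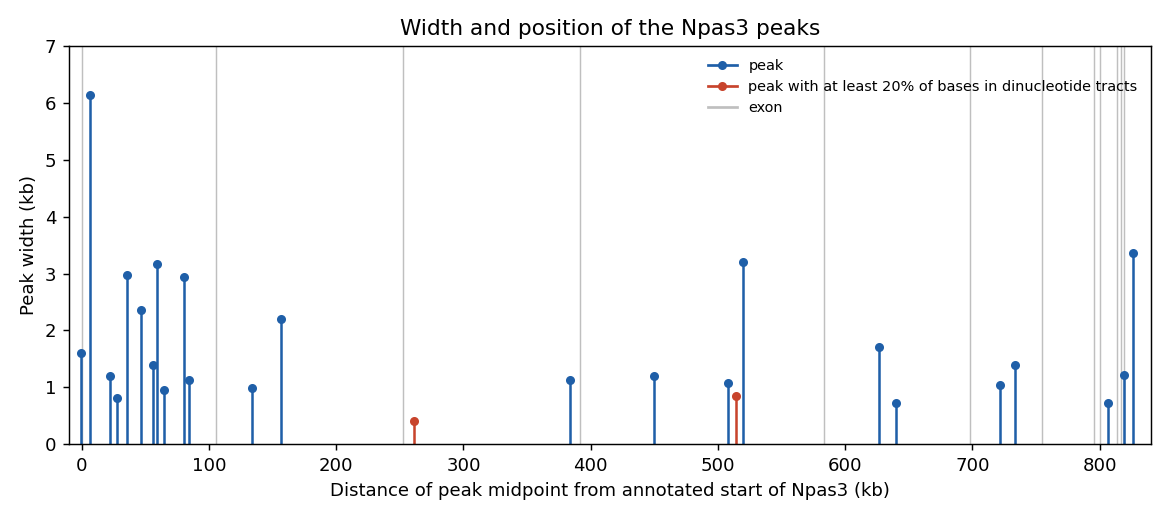
Width in kb of each of the 26 Npas3 peaks against the distance of its midpoint from the annotated start in kb, with exons as grey lines and peaks rich in dinucleotide repeats in red. The first 100 kb hold the 6.14 kb peak and 9 others after the peak at the start, and neighbouring peaks are farther apart in the rest of the gene.

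The 3 widest Npas3 peaks were 6.14 kb, 3.36 kb and 3.21 kb. The widest lay in intron 1 and began 3.37 kb from the annotated start, and the one of 3.21 kb lay in intron 4, at chr12:54867758-54870963. The peak of 3.36 kb, at chr12:55174238-55177600, began 1076 bp past the end of the gene and is counted only because of the 2 kb flank. Over all 26, widths ranged from 0.404 to 6.14 kb with a median of 1.21 kb, close to the 1.32 kb of the whole list.

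Npas3 peaks were richer in G and C than the gene around them. Their GC content ranged from 39.2 to 63.9% with a median of 45.2%, and 24 of the 26 exceeded the 41.3% of the gene. Of 763 windows of 1 kb in Npas3 that touched no peak, 48.1% exceeded the gene, and their median was 41%. Over all 10 genes, 39 of 47 peaks (83.0%) had a higher GC content than their gene, beside 75.4% of the 20300 pairs of a protein-coding gene and a peak. More G than C on the coding strand, which favours R-loops in transcribed DNA, was seen in 15 of the 26 Npas3 peaks, near the 56.6% of its peak-free windows. In intron 1 it was seen in 8 of 10 peaks, and elsewhere in 7 of 16. Over the 1 kb around each midpoint in place of the whole peak, it was seen in 11 of the 26. The 56.6% is for the whole gene. No such share is available for intron 1 alone, so whether its peaks differ from the intron around them was not tested.

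Among the 296 protein-coding genes of 412 to 1647 kb, which is from 0.5 to 2 times the length of Npas3, the median was 1 peak and 72.0% had at least 1. Npas3 ranked 3 in number of peaks. Agap1, which encodes a GTPase-activating protein of endosomal traffic, had 30, and Msi2, which encodes a Musashi RNA-binding protein of stem cells, had 28. Below Npas3 came Cdh13 with 23, Dock1 with 21, and Pde10a and Exoc4 with 17 each. Agap1 and Msi2 are shorter, at 440 and 427 kb, and per 100 kb they held 6.75 and 6.50 peaks against 3.14 in Npas3. Over all genes of at least 300 kb, 4 had more peaks than Npas3, and among these Gm20388 and Fgfr2 have annotated models of 4435 and 3009 kb.

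Npas1 encodes a repressor found in interneurons and lies on the minus strand at chr7:17041070-17062129. Its single peak, 4.54 kb at chr7:17038742-17043285, covered its last exon, exon 12, and ran past the end of the gene into Tmem160. Whether the hybrid belongs to transcripts of Npas1 or of Tmem160 cannot be told apart. The annotated start of Npas1 lay 18.8 kb from the near edge of this peak.

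Npas2 encodes a paralogue of CLOCK and lies on the plus strand at chr1:39250576-39420079. A peak of 1.46 kb at chr1:39248873-39250335 ended 241 bp before its start and had 59.9% G and C. The other 3 peaks were narrow and intronic, at 0.325 and 0.875 kb in intron 1 (chr1:39299077-39299401 and chr1:39303677-39304551) and 0.420 kb in intron 5 (chr1:39361209-39361628). Each of the 3 had between 25.8 and 37.4% of its bases in dinucleotide repeats. Npas2 was the member with the most peaks of this kind.

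Npas4 encodes a factor induced in neurons by activity and lies on the minus strand at chr19:4984355-4989971. It contained 0 peaks, and its assigned peak, 0.393 kb at chr19:4982625-4983017, lay 1338 bp past its end with 33.8% of its bases in dinucleotide repeats. Sim1, which directs the development of hypothalamic neurons, lies on the plus strand at chr10:50615457-50708958 and had 0 peaks. The nearest peak was 267 kb away, and 10.1% of protein-coding genes were as far from a peak or farther. Sim2, on the plus strand at chr16:94086061-94347498, encodes a related factor that mostly represses. A peak of 0.908 kb at chr16:94086081-94086988 began 20 bp after its start and overlapped exon 1, and a peak of 0.196 kb at chr16:94120084-94120279 lay in intron 7. Intron 7 spans 227 kb, or 87.0% of the annotated Sim2 model, and this was its only peak. Dinucleotide repeats made up 0.659% of Sim2 with its flanks and at least 2.30% of each other member, where unsequenced positions count as length. How much of intron 7 is unsequenced, where a peak cannot be called, was not checked. Whether the low peak density of Sim2 reflects sparse peaks can therefore not be told.

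Hif1a and Epas1 encode HIF alpha subunits, which are stabilised in low oxygen. Hif1a lies on the plus strand at chr12:75002362-75048517 and had a peak of 0.468 kb at chr12:75001130-75001597 that ended 765 bp before its annotated start. Its peak of 0.206 kb at chr12:75009067-75009272 lay 213 bp past the RefSeq TSS, which is inside the annotated gene. This narrow peak had 73.8% G and C, the highest of the 47, and a CpG ratio of 1.04. The other peaks were 1.69 kb in intron 1 (chr12:75022107-75023795) and 2.07 kb over exon 5 (chr12:75030306-75032371), with 35.2 and 38.6% G and C. The latter also overlapped Gm15283, a noncoding gene on the opposite strand, and the sources of the hybrid cannot be told apart. Epas1, on the plus strand at chr17:87153247-87232750, had 2 peaks in intron 1, of 1.80 kb at chr17:87166904-87168702 and of 7.08 kb at chr17:87178415-87185494. Together they covered 10.6% of the gene and its flanks, beside 8.83% for Hif1a.

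Of the general partners, Arnt2 had more peaks than Arnt. Arnt, on the plus strand at chr3:95238310-95301162, had 1 peak of 0.954 kb at chr3:95277584-95278537 that overlapped exon 6, and its start lay 39274 bp from that peak. Arnt2, on the minus strand at chr7:91394791-91558469, had 6 peaks that covered 9.30% of it with its flanks, beside 1.43% for Arnt. The Arnt2 peak over the TSS was 5.48 kb wide, at chr7:91554102-91559579, and reached 4.37 kb into the gene. A peak of 4.01 kb at chr7:91397774-91401786 overlapped exons 18 and 19, the last of the gene, and the next in width was 2.16 kb in intron 5. Arnt2 and Npas3 were the members with peaks over both their first and their last exon.

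Peaks rich in dinucleotide repeats, defined by at least 20% of bases in perfect TG, CA, AG or CT repeats, made up 9 of the 47 (19.1%), beside 13.2% of all listed peaks. This measure was chosen after the sequences had been seen. The 9 peaks were spread over 6 members, with 3 in Npas2, 2 in Npas3 and 1 each at Npas4, Sim2, Arnt2 and Hif1a. Their share of repeat bases ranged from 21.7 to 44.4%, and the other 38 peaks had at most 10.9%. All 9 were under 1 kb, where they made up 52.9% of the 17 member peaks, beside 27.7% of all listed peaks of that size. Among listed peaks of at least 1 kb the share was 2.95%. The repeat-rich peaks had a median absolute GC skew, the difference of G and C over their sum, of 0.510, beside 0.0623 in the others. Part of this follows from the definition, since each such repeat holds G or C but not both. The repeat-rich peaks were also narrower, with a median of 0.42 kb against 1.53 kb. Their narrow width, too, can follow in part from the definition, since a given repeat is a larger share of a narrow peak. The longest single repeat at the members, 72 bp, lay in the 6.14 kb peak of Npas3, where repeats made up 7.64% of bases. Among all listed peaks the median absolute skew was 0.301 under 0.5 kb and 0.0492 at 2 kb or more. Repeats of this kind make up 2.83% of the genome and 4.53% of all peak bases. Without such peaks, 8 of the 10 members had a peak, beside 40.8% of protein-coding genes. Npas4 then had 0, Npas2 went from 4 to 1 and Sim2 from 2 to 1, whereas Npas3 kept 24 of 26. What part these repeats have in the peak calls was not tested.

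**Figure D4:**
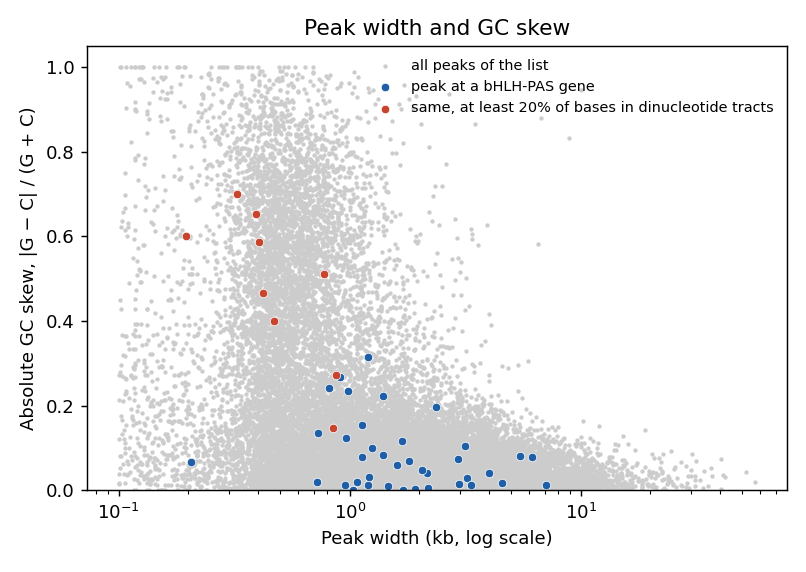
Absolute GC skew against peak width in kb (log scale) for all listed peaks in grey and the 47 peaks at bHLH-PAS genes in colour, with those of at least 20% repeat bases in red. The red peaks are all narrower than 1 kb, and most of them lie above the blue peaks, none of which exceeds a skew of 0.315.

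Because the DNA was cut with 5 restriction enzymes, peak edges were compared with their sites. Of the 94 edges of the 47 peaks, 25 (26.6%) lay within 100 bp of a site, beside 28.3% of the 44264 edges in the list. Both edges were near a site in 4 peaks, and 27 peaks had no site inside. No share over the whole list is available beside these counts, so they are not read as a trait of the member peaks. In Npas3 the peaks with both edges near a site were the 6.14 kb peak, the peak of 1.21 kb at chr12:54370860-54372065 and the repeat-rich peak of 0.404 kb in intron 3, and the fourth was the repeat-rich peak in intron 5 of Npas2.

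Other genes of the same family and of the pathways these factors serve were counted by the same rule. Of 9 other bHLH-PAS genes, 6 had a peak, and the TSS lay in a peak at 4 of them, beside 43.1% and 14.9% of protein-coding genes. These were Arntl and Clock, the core activators of the circadian clock, with TSS peaks of 3.16 and 1.66 kb, Hif3a with 14.9 kb and the coactivator gene Ncoa2 with 3.60 kb. Ncoa1 had the most peaks, 9, and Ahr, Ahrr and Arntl2 had 0. Repeat-rich peaks made up 0 of the 21 at these genes, beside 13.2% of all listed peaks.

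Of 18 genes of the HIF pathway, 15 had a peak, again beside 43.1% and, for the TSS, 14.9% of protein-coding genes. The TSS lay in a peak at 4 of them, the prolyl hydroxylase gene Egln1 (2.65 kb), the ubiquitin ligase gene Rbx1 (0.950 kb), and the HIF targets Vegfa (10.2 kb), which encodes an angiogenic factor, and Slc2a1 (11.6 kb), which encodes a glucose transporter. Egln1 and Egln3 had the most, 4 each. Of 14 circadian clock genes, 13 had a peak, and Cry1 was the exception, beside the same 43.1% of protein-coding genes. The TSS lay in a peak at 7 of them, beside 14.9%, in the period genes Per1 (1.005 kb) and Per3 (2.59 kb), the nuclear receptor genes Nr1d1 (16.4 kb), Nr1d2 (1.47 kb) and Rorb (3.60 kb), the repressor gene Bhlhe40 (1.33 kb) and the kinase gene Csnk1d (2.20 kb). Rora, at 734 kb the longest of them, had the most peaks, 10, or 1.35 per 100 kb. The median density was 5.95 peaks per 100 kb over the HIF pathway genes, 5.99 over the clock genes and 1.02 over the other bHLH-PAS genes, beside 2.77 over the 10 members. The lists differ in gene length, with the HIF pathway genes spanning 2.16 to 53.7 kb.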

How the data were processed

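DRIP-seq reads from NSPCs were trimmed by the authors (Trim Galore 0.6.6) and aligned to NCBI37/mm9. After removal of duplicates, a Hidden Markov Model served for peak calling. The deposited values are peak positions in base pairs, without a count or other measure of strength. Each library pooled 3 DRIP reactions per biological replicate. The aligner and how replicates were combined into 1 list are not given in the sources used here, so the depth and the spread between replicates are unknown.

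Peaks were compared with the mm9 sequence and GENCODE M1. An overlap was counted from 1 bp, after genes were extended by 2 kb. Density is peaks per 100 kb of extended gene. Introns are those of the longest protein-coding transcript. RefSeq promoters (table build GRCm38.p6) were matched exactly to mm9, which placed 8 members. Calculations used Python 3.11.15 and numpy 2.4.6, and figures matplotlib 3.10.9. Overlap, midpoint and merging steps were tested on simulated data.

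The members and the lists of other bHLH-PAS, HIF pathway, clock and marker genes were chosen with earlier results of these data known. Named were all members, genes sharing a peak with a member, the nearest neighbours of Npas3 in peak number (3 above, of which 2 exist, and 3 below, with a tie), and, of each other list, genes with a peak over the TSS and those with the most peaks. Peaks were described singly at members with at most 5. For members with more, these were the TSS peak, the 3 widest and those over exons. Other peaks and genes are named where they are exceptions, carry a printed sequence or decide a count, and these were chosen after their values were seen. As alternatives, peaks under 1 kb were dropped, peaks less than 1 kb apart were joined, and results were recomputed with flanks of 0 or 5 kb, midpoints, the longest transcript, other TSS definitions, all genes or autosomes, a limit of 500 kb for long genes and other measures of composition. The repeat measure, its limits and the RefSeq TSS were added after seeing the data.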

Additional observations from a re-analysis of the deposited data

How the results depend on the processing

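Of 79 values recomputed under alternatives, 66 were counts within 1.5 times the reported count or values equal to it, and 13 were not, where any change of a median was counted. Keeping only peaks of at least 1 kb left 30 peaks at the members and 19 at Npas3. It left 6 members with a peak, beside 7746 of the 22367 protein-coding genes. The median density was then 1.44 per 100 kb and the median GC content of Npas3 peaks 45.1%. The median density was 2.14 without flanks, 2.68 with flanks of 5 kb, 2.71 by peak midpoint and 1.95 without repeat-rich peaks. Dropping the flanks left 8 members with a peak, since Npas4 was lost, beside 8858 protein-coding genes. Dropping repeat-rich peaks left 38 peaks at the members. Allowing a peak within 1 kb of the TSS gave 5 members, beside 19.4% of protein-coding genes. Among genes of at least 500 kb, 2 had at least as many peaks as Npas3. The GC content of Npas3 peaks was 46.1% over all peak bases and had a median of 44.97% without repeat-rich peaks. Repeat-rich peaks numbered 5 with a limit of 30% of bases and 2 with repeats of at least 6 units. The list gives no depth, so a gene without a peak cannot be told apart from a gene whose hybrids were too few to be called. The input and the separate replicates were not analysed here, and no paired analysis was possible because there is 1 list.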
